A study of Mus musculus with 2 samples.

Results

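The collagens are the family of matrix proteins whose chains wind around each other into a rigid helix. Their genes were followed here in the white fat pad beside the epididymis of mice lacking the nuclear receptor PPARβ/δ and of wild-type mice. Members were the probe sets whose annotation names a single gene with a symbol of the form Col, number, a, number. There were 58 such probe sets for 36 genes, among 22690 probe sets and 12394 genes on the array. A further 8 collagen genes of the RefSeq gene table (Col6a4, Col6a5, Col6a6, Col8a2, Col23a1, Col24a1, Col27a1 and Col28a1) had no such probe set and were not analysed here.

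The wild-type group was a pool of RNA from 5 male mice, labelled 129S1/SvJae and 12 to 16 weeks of age. The knockout group was a pool from 5 male PPARβ/δ knockout mice of 12 weeks, labelled as a mixed Sv129/C57BL/6 background. The design text calls the wild-type animals littermates, so the sources differ on the strain of the controls, and strain and genotype cannot be told apart in these 2 arrays. All animals received standard chow, and the knockout allele is not described further in the sources used here. Since 1 Affymetrix array was run per pool, each gene has 1 wild-type and 1 knockout value, there is no spread between replicates, and no test between genotypes was possible. The number of arrays limits the precision.

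Values are probe set intensities on a linear scale, background-corrected and normalised by the authors. Differences are given on the log2 scale, knockout over wild type, and an intensity of 32 (log2 of 5) on at least 1 array was taken as the floor for describing a gene. Over all probe sets the log2 values of the arrays correlated with r = 0.944; this is across probe sets, not across replicates. Of 12394 genes, 6533 reached the floor, with a median difference of -0.08. For actin, the 3' over 5' signal, a measure of RNA integrity, was 2.30 in wild-type and 2.48 in knockout RNA. Ppard itself was below the floor on both arrays (6.58 and 6.27), and so cannot check which pool is which. The fat cell genes Adipoq (10259 in wild-type and 8030 in knockout RNA) and Fabp4 (15004 and 13018) were bright on both arrays, and so was the epididymal gene Gpx5 (7698 and 8173).

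In fat, collagens of the fibrillar class (types I, III and V) form the cables around lobules and vessels, and fibroblasts and fat cell progenitors are their main known source. Type V chains are known to start and thin the fibrils built from type I. Type IV chains form the sheet-like basement membrane that wraps each fat cell and each capillary, and type VI filaments link that sheet to the fibrils. Types XV and XVIII sit at the outer face of basement membranes, and type XVI belongs to the collagens that attach to fibril surfaces.

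Of the 36 collagen genes, 16 reached the floor, and 15 of these did so on both arrays. Of the 16, 14 were lower in the knockout pool and 2 were higher, Col16a1 and Col4a4, with a median log2 difference of -0.78, or 1.71-fold lower. By comparison, 3629 of all 6533 genes were lower and their median was -0.08. At least 2-fold lower were 6 collagen genes, or 37.5% of the 16, against 9.14% of all genes above the floor. At least 2-fold higher was 1 collagen gene, against 13.7% of all genes. In tissue RNA of this kind, fewer cells of a type and less RNA per cell cannot be told apart. The pools also differed in germ cell RNA, with marker sums of 3816 in wild-type and 73257 in knockout RNA. Its part in the collagen differences was not tested. Without any floor, 27 of the 36 genes were lower and 9 higher, and the median was -0.27, against -0.07 over all 12394 genes. At that setting 6 of the 36 were at least 2-fold lower, against 4.97% of all genes.

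**Figure D1:**
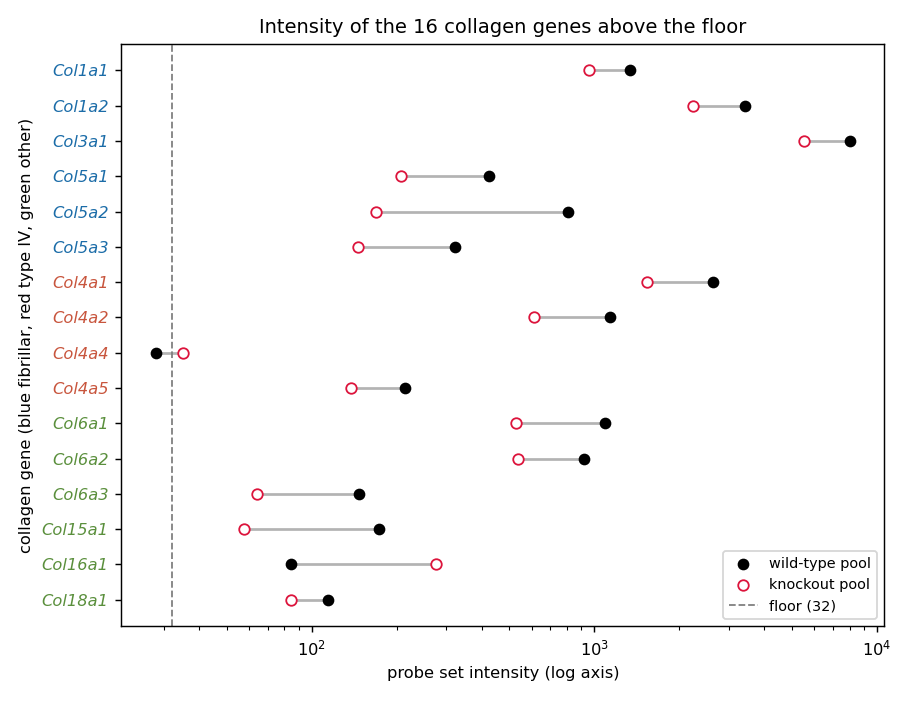
Probe set intensity (log axis) of each collagen gene above the floor, in the wild-type pool (filled black) and the knockout pool (open red); the dashed line is the floor of 32. The knockout point lies left of the wild-type point for 14 of 16 genes and right of it for Col4a4 and Col16a1; levels of different genes are not comparable, since each rests on its own probes.

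All 6 fibrillar collagens above the floor were lower in the knockout pool, with a median difference of -0.83. They divided by type: the chains of types I and III lay between -0.48 and -0.61, and those of type V between -1.04 and -2.26. Col1a1, which encodes the more plentiful chain of each type I molecule, was at 1341 in wild-type and 961 in knockout RNA, 1.39-fold lower. Col1a2, the partner chain of type I, was at 3407 and 2227, 1.53-fold lower. The differences of these partners, -0.48 and -0.61, were 0.13 apart, but that gap depended on the probe set. With the sets of each gene averaged the differences were -0.17 and -0.73, 0.55 apart, and with the dimmest sets 0.14 and -0.84, 0.98 apart. For scale, the SD between probe sets of a single gene had a median of 0.25 over 2137 genes. Col3a1, whose product forms type III fibrils mixed with type I, was at 8009 and 5511, 1.45-fold lower. None of these genes was lower by 2-fold or more.

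The type V chains were each at least 2-fold lower. Col5a2 had the largest difference of any collagen gene above the floor, at 809 in wild-type and 169 in knockout RNA, 4.78-fold lower. Only 0.536% of all genes above the floor were as low or lower. Col5a1 was at 425 and 207 (2.06-fold lower), and Col5a3, a chain found in fewer tissues, at 322 and 146 (2.21-fold lower). Col5a1 and Col5a3 were 0.10 apart on the log2 scale, whereas Col5a2 lay 1.22 below Col5a1 and 1.11 below Col5a3. Col5a2 mixes with Col5a1 in the most common type V molecule, and its second probe set, at 86.8 and 36.0, gave a smaller difference of -1.27. The second probe set of Col5a1 gave -1.44, so that the order of Col5a1 and Col5a2 depended on which probe sets were taken. When all differences were centred on the median of all genes, Col5a1 was at -0.96, short of 2-fold.

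The second probe sets of the type I and III genes were dimmer and did not all differ in the same direction. That of Col1a2 was at 586 and 327 (-0.84) and that of Col3a1 at 568 and 319 (-0.83), both further from 0 than the brighter set. That of Col1a1, at 49.9 and 54.9, was slightly higher in the knockout pool (0.14), so the direction of Col1a1 rests on its brighter set. Among the 9 collagen genes with several probe sets above the floor, all sets pointed the same way for 8, Col1a1 being the exception. Within these genes the SD between sets was 0.21 at the median and largest for Col5a2, at 0.70. The other 7 genes above the floor, Col16a1 and Col15a1 among them, had 1 such probe set and so no check of this kind.

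**Figure D2:**
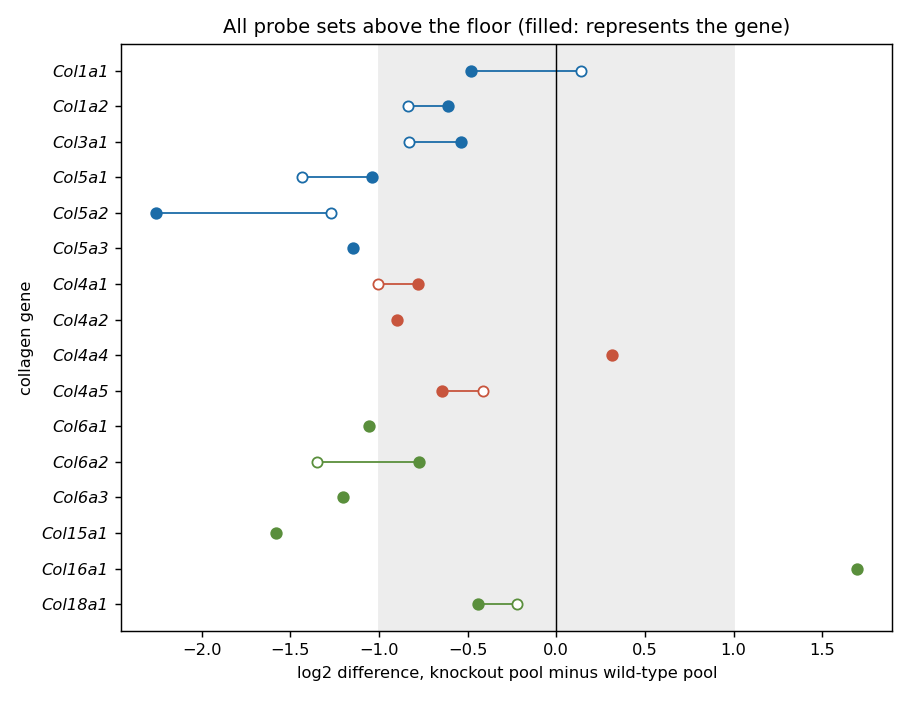
Log2 difference (knockout minus wild-type pool) of every collagen probe set above the floor; filled points represent the gene, open points are its other probe sets, and the grey band spans less than 2-fold. Blue marks fibrillar, red type IV and green other collagens. The sets of Col5a2 lie at -2.26 and -1.27, and those of Col1a1 at -0.48 and 0.14 on either side of 0.

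The basement membrane collagens Col4a1, Col4a2 and Col4a5 were lower in the knockout pool, all by less than 2-fold. Col4a1, the main chain of the network, was at 2631 in wild-type and 1531 in knockout RNA, 1.72-fold lower. Col4a2, which joins Col4a1 in the same molecule, was at 1138 and 610, 1.87-fold lower. The differences of these partners, -0.78 and -0.90, were 0.12 apart. Of the chains with narrower expression, Col4a5 was at 215 and 137 (1.56-fold lower). Col4a4, a chain best known from kidney, was at 28.1 (below the floor) and 35.0, a difference of 0.32, and at least 1.09-fold higher with the wild-type value set to the floor. It was described only because of its knockout value. The remaining chains, Col4a3 (13.1 and 14.6) and Col4a6 (27.9 and 23.1 at its brighter probe set), were below the floor on both arrays. The second probe set of Col4a1 was 2.01-fold lower, and that of Col4a5 differed by -0.41.

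Of the 6 other collagens above the floor, 5 were lower and 1 higher, with a median of -0.92. The type VI chains were all among the lower ones. Col6a1 was at 1096 in wild-type and 527 in knockout RNA, 2.08-fold lower. Col6a2 was at 923 and 539, 1.71-fold lower at the brighter probe set, and at 120 and 47.1 (-1.35) at the other. Col6a3, the large chain that is made in fat and whose cleaved end is known as endotrophin, was at 147 and 63.9, 2.31-fold lower. These chains assemble together, and their differences of -1.06, -0.77 and -1.21 spanned 0.43. Col6a1, like Col5a1, was short of 2-fold after centring (-0.97).

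The collagens of the basement membrane surface differed from each other. Col15a1 was at 173 in wild-type and 57.8 in knockout RNA, 2.99-fold lower, the second-largest lower difference after Col5a2. Its structural relative Col18a1, whose end fragment is endostatin, was at 115 and 84.5, 1.36-fold lower, and -0.22 at its second probe set. These 2 genes were 1.14 apart on the log2 scale, with 1 probe set to rest on for Col15a1.

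Col16a1 was the single collagen gene at least 2-fold higher. Its only probe set was at 84.7 in wild-type and 275 in knockout RNA, 3.24-fold higher and above the floor on both arrays. Of all genes above the floor, 8.57% were as high or higher. The probe set is of the kind that Affymetrix marks as shared by several transcripts of a gene (its name ends in _a_at).

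**Figure D3:**
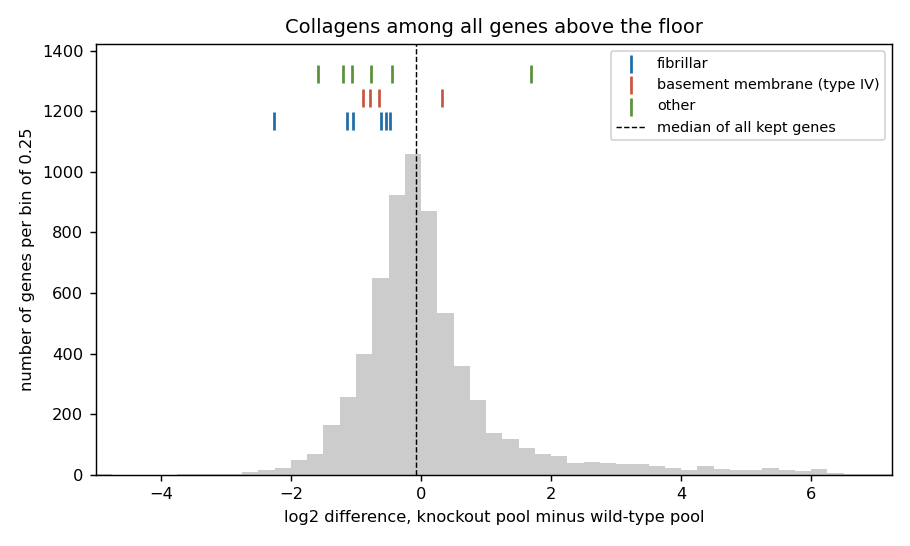
Number of genes per bin of 0.25 in log2 difference (knockout minus wild-type pool) for all 6533 genes above the floor (grey), with a tick for each collagen gene in blue (fibrillar), red (type IV) or green (other). Col5a2 at -2.26 and Col16a1 at 1.70 are the outermost ticks, and the dashed line is the median of all genes, -0.08.

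The other 20 collagen genes were below the floor on both arrays, with intensities from 5.16 to 30.4 in wild-type and from 4.81 to 31.9 in knockout RNA. They include the cartilage collagens Col2a1, Col9a1, Col9a2, Col9a3, Col10a1, Col11a1 and Col11a2, the skin anchoring collagens Col7a1 and Col17a1, and the transmembrane Col13a1 and Col25a1. The median difference of their 31 probe sets was -0.03. The genes nearest the floor were Col14a1, a fibril-associated collagen (30.4 and 31.9), and Col20a1. The probe sets of Col20a1 were at 15.5 and 31.7, at 13.8 and 29.7, and at 5.16 and 4.81. Its brighter sets thus differed by 1.03 and 1.11 without reaching the floor, whereas just inside it Col4a4 reached 35.0. The rest, besides Col4a3 and Col4a6, were Col8a1, Col12a1, Col19a1, Col22a1 and Col26a1, with intensities no higher than 18.8. Col11a2, which lies on chromosome 17 as Ppard does, was at 11.4 and 10.6.

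Several collagen genes lie side by side in the mouse genome, in the order of RefSeq genes of GRCm38.p6. Col3a1 and Col5a2 are neighbours on chromosome 1 with no protein-coding gene between them, and their differences, -0.54 and -2.26, were 1.72 apart. The dimmer probe sets of the same genes gave -0.83 and -1.27, 0.44 apart. Col6a2 and Col6a1 are neighbours on chromosome 10, at -0.77 and -1.06, and Col18a1 lies 2 protein-coding genes further on, at -0.44. Col4a1 and Col4a2 are transcribed away from each other on chromosome 8, and the first 22 bases of their RefSeq transcripts overlap. That overlap, labelled shared start, is shown on the + strand of GRCm38.p6. The differences of this pair, -0.78 and -0.90, were 0.12 apart, and a part of the overlap in this was not tested.

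Col4a1 and Col4a2 shared start, chr8:11312805-11312826: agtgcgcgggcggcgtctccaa

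Of the 16 genes, 14 had an entry in the RefSeq promoter table (GRCm38.p6), and Col1a1 and Col5a2 were not among them. The 250 bases before the start were searched on both strands for CCAAT (the CCAAT box), GGGCGG (the GC box), TATAAA (the TATA box) and AGGTCA (the half-site of nuclear receptors). They were also searched for AGGTCA repeated head to tail with 1 base between the copies, the spacing of sites that PPAR dimers bind. Of the 14 genes, 7 held the CCAAT box, 8 the GC box, 1 the TATA box (Col3a1), 1 the half-site (Col4a4) and 0 the paired element. Among all 32851 promoters in the table the shares were 33.8%, 32.7%, 12.4%, 14.0% and 0.0335%. These shares are per promoter, whereas a collagen gene was counted if any of its promoters matched. Col6a2 and Col18a1 have more than 1 promoter, so the units are not quite alike. The windows of Col1a2 and Col3a1, which were lower by nearly the same amount, and of Col16a1, which was higher, are printed with matches to these letters in capitals.

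Col1a2, + strand, chr6:4505368-4505617: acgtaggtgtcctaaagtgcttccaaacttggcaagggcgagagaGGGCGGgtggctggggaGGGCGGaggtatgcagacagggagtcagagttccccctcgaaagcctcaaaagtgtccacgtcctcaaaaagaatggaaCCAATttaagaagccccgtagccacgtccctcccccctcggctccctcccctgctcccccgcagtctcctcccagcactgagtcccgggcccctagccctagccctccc

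Col3a1, + strand, chr1:45311288-45311537: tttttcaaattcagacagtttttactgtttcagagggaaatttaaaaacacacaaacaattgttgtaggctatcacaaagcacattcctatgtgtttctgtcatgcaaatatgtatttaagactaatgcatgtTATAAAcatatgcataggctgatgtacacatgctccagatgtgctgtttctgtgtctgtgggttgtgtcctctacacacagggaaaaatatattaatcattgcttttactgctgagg

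Col16a1, + strand, chr4:130047590-130047839: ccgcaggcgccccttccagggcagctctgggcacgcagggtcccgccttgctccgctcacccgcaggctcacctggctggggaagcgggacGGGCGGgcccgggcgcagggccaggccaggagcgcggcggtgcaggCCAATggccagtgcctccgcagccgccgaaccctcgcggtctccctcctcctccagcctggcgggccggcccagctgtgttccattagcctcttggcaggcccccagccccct

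The windows of Col1a2 and Col16a1 both hold the GC box and the CCAAT box, in genes that differed by -0.61 and 1.70, whereas that of Col3a1, at -0.54, holds neither. Their share of G and C was 62%, 75.6% and 35.2%, against a median of 52.4% over all promoters. These matches describe the letters in these windows only.

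Genes of the collagen pathway were read from lists chosen by function. These lists, and those of cell markers further on, were chosen with earlier results of these data known. Of 18 measured genes for folding and modifying collagen chains inside the cell, 10 reached the floor, 6 lower and 4 higher, with a median of -0.03. The collagen chaperone Serpinh1 was at 2581 in wild-type and 1534 in knockout RNA, a difference of -0.75. Crtap, part of the prolyl 3-hydroxylase complex, was at 389 and 192, 2.03-fold lower and the only one at least 2-fold lower. P4ha2, a prolyl 4-hydroxylase subunit, was at 134 and 266, a difference of 0.99 and the highest of this list. The list was thus split in direction, with 60% lower against 55.5% of all genes above the floor, and a median close to that of all genes (-0.08).

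All 5 measured genes of collagen processing and cross-linking above the floor were lower, of 10 with a probe set. Of all genes above the floor, 55.5% were lower. Loxl1, a lysyl oxidase that cross-links matrix, was at 645 in wild-type and 151 in knockout RNA, 4.28-fold lower, and Lox at 69.1 and 34.4, 2.01-fold lower. Pcolce, which helps trim the ends of procollagen, was at 246 and 230 (-0.10), the smallest difference of the list. Of the collagen receptors, Itgb1 was at -0.42 and Ddr1 at -0.20, and the other 4 of 6 were below the floor.

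Of 9 regulators above the floor, out of 13, 7 were lower (median -0.23), or 77.8% against 55.5% of all genes above the floor. The TGF-β receptor Tgfbr2 was at 997 in wild-type and 423 in knockout RNA, 2.35-fold lower, and Pdgfrb 2.04-fold lower. Pdgfra (0.12) and the TGF-β target Ccn2 (0.12) were slightly higher. Tgfb1 differed by -0.67, and Tgfb2, Tgfb3, Smad3 and Smad7 were below the floor on both arrays.

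Most listed genes for partners of collagen fibrils were lower in RNA as well. Of 17 genes for proteins of fibrils and the surrounding matrix above the floor, 14 were lower. This was 82.4%, against 55.5% of all genes above the floor. Of the 17, 7 were at least 2-fold lower, or 41.2%, against 9.14% of all genes. The median was -0.95, or -0.88 with dim values raised to the floor. The lists were not tested against each other. Prelp, which anchors basement membranes to fibrils, was at 2553 in wild-type and 546 in knockout RNA, 4.68-fold lower. Tnxb, a tenascin that binds fibrils, was 3.06-fold lower, Fn1 2.48-fold, the fibril organiser Lum 2.44-fold, Postn 2.16-fold and Mfap5 2.07-fold. Fbln2, at 58.8 and 25.4, was 2.32-fold lower as measured and at least 1.84-fold with the knockout value raised to the floor. In the other direction, Comp, a protein best known from cartilage and tendon that binds fibrillar collagens, was under the floor in wild-type RNA (10.3) and reached 136 in knockout RNA, at least 4.24-fold higher.

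The partners of type IV collagen gave a median of -0.62. Of 9 above the floor 8 were lower, or 88.9%, against 55.5% of all genes above the floor. At least 2-fold lower were 2 of the 9, or 22.2%, against 9.14% of all genes. Lama4, a laminin chain of vessels and fat cells, was at 305 in wild-type and 102 in knockout RNA, 2.98-fold lower, and Nid2, a nidogen, was 2.64-fold lower. Nid1, which bridges laminin and type IV collagen, was at 2478 and 1406 (-0.82). Lama1, at 18.8 (below the floor) and 33.3, was the only one higher, at least 1.04-fold with the wild-type value raised to the floor. The type IV genes themselves had a median of -0.71, Col4a4 included.

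**Figure D4:**
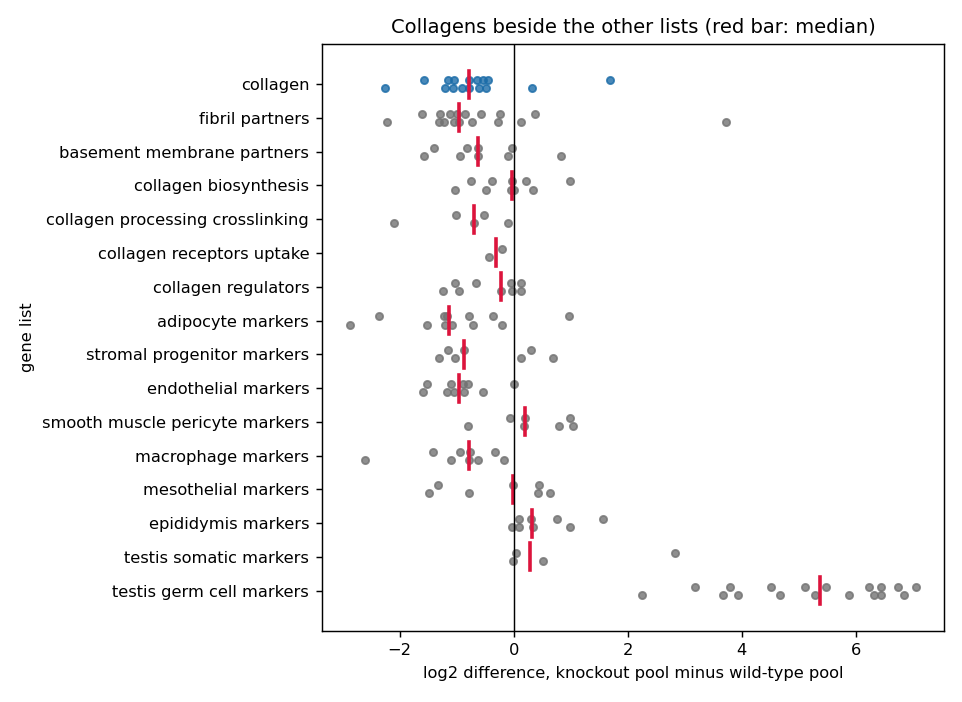
Log2 difference (knockout minus wild-type pool) of each gene above the floor in the collagens (blue) and in the pathway and cell marker lists (grey), with the median as a red bar. The collagen median is -0.78. Marker medians are -0.78 for macrophage, -0.87 for stromal progenitor (-0.10 with dim values raised to the floor), -0.96 for endothelial and -1.12 for adipocyte lists. Pathway medians are -0.70 for processing and crosslinking, -0.62 for basement membrane partners and -0.95 for fibril partners. With dim values raised to the floor, those of processing and crosslinking and of fibril partners are -0.53 and -0.88. Germ cell markers lie far to the right at 5.38 (4.85 with dim values raised to the floor).

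Endothelial, macrophage and adipocyte markers were mostly lower in the knockout pool, against 55.5% of all genes above the floor. Of the endothelial markers, 9 of 10 were lower (median -0.96), and their summed intensity over all 12 measured was 1560 in wild-type and 813 in knockout RNA. Of the macrophage markers, 9 of 9 were lower (median -0.78; sums of 4558 and 2729). Adipocyte markers were lower in 11 of 12 (median -1.12; 64200 and 39954). Stromal progenitor markers went both ways. Of 7 above the floor 4 were lower, or 57.1%, and the median of -0.87 became -0.10 with dim values raised to the floor, against -0.07 over all genes. Cd34 was at -1.15 and Pdgfrb at -1.03, while Dpp4 was at 0.68 and Pdgfra at 0.12, and the sum over all 10 measured was 2348 and 1790. Of the defining markers, Thy1, Fap and Clec3b (stromal) and Kdr and Tie1 (endothelial) were below the floor on both arrays. Pdgfra and Pdgfrb stand in both the regulator and the stromal list.

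Smooth muscle and pericyte markers had a median of 0.19 (sums of 7637 and 8939). Of 7 above the floor 2 were lower, or 28.6%, against 55.5% of all genes above the floor. The lower ones were Rgs5 (-0.79) and Mylk (-0.07), while the 5 higher ran from 0.19 (Acta2) to 1.04 (Myh11). Cspg4 was below the floor on both arrays. Mesothelial markers had a median of -0.01 (sums of 3680 and 4282), with members on both sides. Of 7 there were 4 lower, or 57.1%, close to the 55.5% of all genes. Gpm6a was at -1.49, Upk3b at -1.33 and Msln at -0.78, while the keratins Krt8, Krt19 and Krt18 were at 0.63, 0.44 and 0.42. Epididymis markers had a median of 0.32 (8; 49089 and 57087). All 18 germ cell markers were higher, from 2.25 to 7.06 with a median of 5.38 (4.85 with dim values raised to the floor), and their sum was 3816 in wild-type and 73257 in knockout RNA, 7 of them under an intensity of 32 in wild-type RNA. Of testis somatic markers, 3 of 4 above the floor were higher (median 0.28; sums over 7 of 296 and 653), against 2902 of all 6533 genes. Cyp17a1, an enzyme of androgen synthesis in Leydig cells, was at 44.0 in wild-type and 312 in knockout RNA, 7.08-fold higher. The steroidogenic genes Star, at 13.2 and 23.3, and Cyp11a1, at 8.54 and 18.5, were below the floor on both arrays, as was the Sertoli cell gene Amh at 3.29 and 3.45. Wt1 stands in both the mesothelial and the testis somatic list. Of 8 skeletal muscle markers only Myl1 reached the floor, at -1.18 (sums of 182 and 137). The part of these markers in the collagen differences was not tested.

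Processing moved the size of the collagen differences more than their direction. The medians of the fibrillar, type IV and other classes were below 0 under every alternative tried. The floor mattered most: with no floor the medians were -0.54, -0.46 and -0.10, since dim members with differences near 0 then entered. The median of all genes was -0.07 at that setting, so that of the other collagens was then close to it. With differences centred on all genes, or with the trend of the difference with intensity removed, 4 collagen genes were at least 2-fold lower (Col5a2, Col15a1, Col6a3 and Col5a3) instead of 6, beside 7.70% and 7.64% of all genes.

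**Figure D5:**
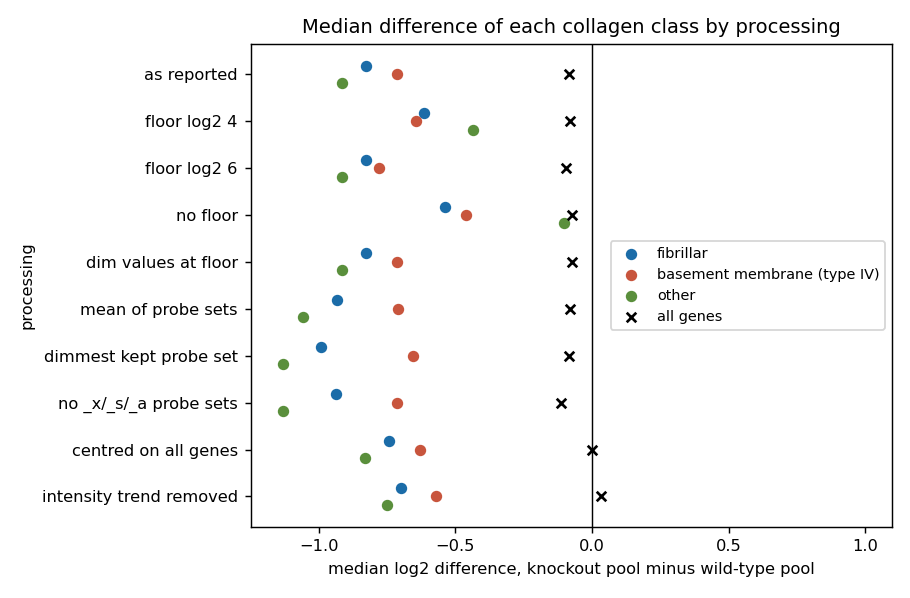
Median log2 difference (knockout minus wild-type pool) of the fibrillar (blue), type IV (red) and other collagens (green) and of all genes (black cross) under each way of processing the values. Every class median lies below 0, and the median of the other collagens moves furthest, from -1.13 to -0.10. The -0.10 is the value with no floor, where all genes were at -0.07.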

How the data were processed

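Pools of 5 animals were each measured on 1 Affymetrix array. The authors deposited an intensity per probe set; GCRMA 2.20 is the tool that the submitters' processing notes name. The values run from 1.91 to 36322 and are therefore linear. GCRMA corrects background from probe sequence and compresses the dimmest signals. The set of arrays normalised together is not given here.

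Genes were named from the array annotation and updated by Entrez identifier to GRCm38.p6 symbols. Of the probe sets, 20393 named 1 gene (20364 matched by identifier), while 691 with several names and 1606 without a name were not used. All collagen symbols were unchanged by the update. The log2 of each intensity was taken. A gene was represented by the probe set with the highest mean log2 value among those reaching log2 5 on at least 1 array. All collagen genes above the floor are named, and of each pathway list the extremes and the members at least 2-fold different; other genes named, such as Serpinh1, Tgfb1, Nid1, Adipoq, Fabp4, Gpx5, Amh, Star, Dpp4 and Krt8, were chosen after their values were seen. A fold reads "at least" where its dimmer value lay under the floor and was raised to it. The members, lists and classes were chosen with earlier results of these data known.

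Alternatives were floors of log2 4 and 6 and none, dim values set to the floor, and the mean or the dimmest of the probe sets. Further ones were no probe sets with names ending in _x_at, _s_at or _a_at, centring, and a lowess trend (fraction 0.3) removed. Types XV and XVIII were also counted with type IV. Python 3.11.15, pandas 2.3.3, NumPy 2.4.6, statsmodels 0.14.6 and Matplotlib 3.10.9 were used, and scripts were tested on simulated data.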

Additional observations from a re-analysis of the deposited data

How the results depend on the processing

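Medians and counts were called moved when they changed by more than 0.25 on the log2 scale, the median SD between probe sets of a gene, or by more than 1.5 times for a count. The median of the 16 collagen genes ranged from -0.95 with the dimmest probe set to -0.27 with no floor, when 36 genes entered. With no floor the fibrillar median was -0.54, the type IV median -0.46 and that of the other collagens -0.10, beside -0.07 over all genes. With a floor of log2 4 the median of the other collagens was -0.43. The count of genes at least 2-fold lower ranged from 4 of 16, centred or with the trend removed, to 8 of 16 with the dimmest probe set. Beside these, 7.70%, 7.64% and 9.41% of all genes were. Genes at least 2-fold higher numbered 2 of 22 with a floor of log2 4 and 2 of 36 with none, where Col20a1 entered. The shares of all genes were 11.4% and 7.89%. Col16a1 dropped out without probe sets whose names end in _x_at, _s_at or _a_at. The count was then 0 of 14, beside 13.5% of all genes. Of 141 single-gene values under alternatives, 132 moved by less than 0.25, 8 by more, and 1 changed sign. That was Col1a1, at 0.14 with its dimmest probe set, while averaging its sets gave -0.17. Many of the 132 could not move by more. A changed floor keeps the brightest probe set of a gene, and centring shifts all genes by the same small amount. The 8 moved values and the changed sign all came from averaging or exchanging the probe sets of a gene. With the sets averaged, Col5a2 was at -1.76 and Col6a2 at -1.06. Counting types XV and XVIII with type IV left the type IV median at -0.71 and that of the others at -0.92. No paired analysis was possible because each genotype has 1 array. With 1 array a group, leaving out a replicate was not possible either.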
